A study of Mus musculus with 4 samples.

Results

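The chemokine gene Cxcl16 and the gene of its receptor, Cxcr6, were followed through single-cell libraries of mouse tumours. They are 2 of the 31053 genes counted, taken by symbol. Their transcripts were placed by cell group, the ligand among myeloid, tumour and stromal cells and the receptor among T and NK states, and by library. All tumours were grown from B16F10, an established mouse melanoma line. The D+F+P library came from tumours of mice given doxorubicin (an anthracycline cytotoxic drug), fasudil (a protein kinase inhibitor) and an antibody against PD-1, the D+F library from mice given doxorubicin and fasudil, and the aPD-1 library from mice given the antibody alone. The control library is named only as such, and doses, days of treatment, sex, age and the number of mice per library are not given in the sources used here. Each group is 1 library, so no test between groups was possible. Every interval below is an exact 95% interval that covers counting error within the libraries and not the spread between tumours. Intervals of levels and ratios take each UMI as independent, so they leave out the spread between cells too.

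CXCL16 is made as a transmembrane protein. On the cell surface it can hold CXCR6-bearing cells and take up oxidised lipoprotein and phosphatidylserine as a scavenger receptor, and after cleavage by the proteases ADAM10 and ADAM17 it acts as a soluble chemokine. CXCR6 is its receptor, carried by activated and tissue-resident CD8 T cells, by NKT cells and by some other T and NK cells. In mouse tumours, dendritic cells that express Ccr7 and Cxcl16 have been described as partners of Cxcr6-expressing CD8 T cells.

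Cxcr6 lies on chromosome 9 from 123806475 to 123811760 on the plus strand of GRCm38, in the GENCODE annotation, with 2 transcripts of 2 exons each. It sits inside Fyco1, a gene of the opposite strand, and shares 0 exonic bases with it. The RefSeq promoter window of Cxcr6 (GRCm38.p6, chr9:123806227-123806526, plus strand, 300 bases) is shown because the results on the receptor turn on 1 kind of cell, T cells, in which nearly all of its transcripts lay. The capitals mark a match, read on the minus strand, to TGTGGT, the core letters bound by RUNX factors. RUNX3 is a factor of CD8 T cells.
Cxcr6: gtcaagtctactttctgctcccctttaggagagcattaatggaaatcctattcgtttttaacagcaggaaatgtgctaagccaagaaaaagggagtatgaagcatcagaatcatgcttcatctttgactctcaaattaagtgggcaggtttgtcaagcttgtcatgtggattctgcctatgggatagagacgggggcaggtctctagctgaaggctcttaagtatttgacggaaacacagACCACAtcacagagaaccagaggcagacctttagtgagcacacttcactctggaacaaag
The match covers bases 241 to 246 of the window and begins at position -10 relative to the start site. The same letters occur on either strand in 16.8% of 32851 RefSeq promoter windows, so a match is common and is a description only. The T-box letters TCACAC, present in 14.5% of windows, and the STAT letters TTCNNNGAA, present in 8.30%, have no match in this window, from which nothing follows about those factors. Cxcl16 lies on chromosome 11 from 70453983 to 70459984 on the minus strand, with 3 transcripts of 5 to 6 exons. It overlaps Zmynd15, a gene of the plus strand, over 552 bases that are exonic in both.

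The libraries held 2739, 2809, 2525 and 2529 barcodes and 22691663, 31937128, 27216211 and 34444856 UMIs for D+F+P, D+F, aPD-1 and control. A UMI, a unique molecular identifier, stands for 1 captured transcript. After filtering, 2443, 2483, 2225 and 2273 cells remained, 9424 in all, with median depths of 1866, 12882, 9570 and 16121 UMIs per cell in the same order. The shallow D+F+P library also stood apart in composition. T-like and NK-like cells made up 68.5% of its cells, against 19.0% in D+F, 30.4% in aPD-1 and 4.44% in control. Low-ribosomal lymphocytes, which are lymphocyte clusters whose median share of ribosomal protein UMIs was under 10%, made up 36.5%, 4.03%, 6.83% and 0.396% of cells in D+F+P, D+F, aPD-1 and control. Pairs of libraries shared between 1 and 14 cell barcodes. Names ending in "-like" rest on marker transcripts, and the clustering left both Cxcl16 and Cxcr6 out of the genes it used. Sub-clusters are numbered with M for myeloid cells and L for T and NK cells. Cells of 1 library are not replicates, and levels are given as the gene's UMIs per 1000000 UMIs of the cell group (CPM), which are not divided by transcript length because each UMI marks 1 transcript end.

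The ligand and the receptor were found in almost separate cells. Of 740 Cxcl16 UMIs, 660 (89.2%) lay in the 595 myeloid cells, which were 6.31% of all cells. Of 2833 Cxcr6 UMIs, 2790 (98.5%) lay in T-like and NK-like cells. Only 5, 1, 2 and 0 cells of D+F+P, D+F, aPD-1 and control carried a UMI of both genes. Per 1000 cells kept, Cxcl16 gave 52.4, 62.0, 158 and 46.6 UMIs in D+F+P, D+F, aPD-1 and control, highest in aPD-1, where myeloid cells were 11.9% of cells, against 4.38% in D+F+P, 5.28% in D+F and 4.09% in control. Cxcr6 gave 582, 161, 444 and 10.999 UMIs per 1000 cells in the same order. Control was lowest in Cxcr6 and lowest in T-like and NK-like cells. In such totals fewer cells of a type and less RNA per cell cannot be told apart, so levels within cell groups follow.

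**Figure D1:**
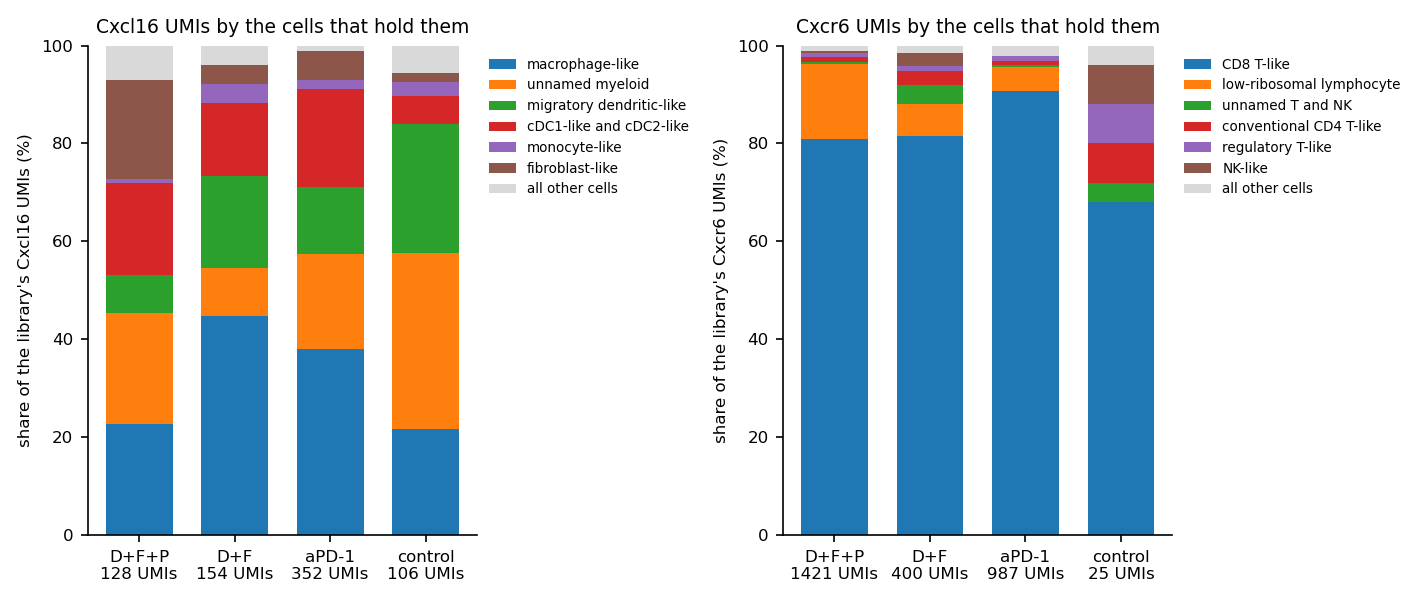
Share (%) of each library's Cxcl16 UMIs (left) and Cxcr6 UMIs (right) held by each cell group, as stacked bars for D+F+P, D+F, aPD-1 and control, with the UMI total under each bar. Macrophage-like cells held 22.7%, 44.8%, 38.1% and 21.7% of the Cxcl16 UMIs in that order, and CD8 T-like cells held 80.9%, 81.5%, 90.7% and 68.0% of the Cxcr6 UMIs, the last of only 25 UMIs.

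Among named myeloid cells, Cxcl16 was highest in migratory dendritic-like cells, then lower in macrophage-like and cDC2-like cells. It was lower again in cDC1-like and then in monocyte-like cells, and plasmacytoid dendritic-like cells had 0 UMIs. Migratory dendritic-like cells are the Ccr7, Fscn1, Ccl22 and Il12b expressing cells that carry antigen towards lymph nodes. The 38 such cells of the 4 libraries, 0.403% of all cells, held 115 Cxcl16 UMIs (15.5% of the total) at 1044 CPM (862 to 1253). By library they stood at 966 CPM in 4 D+F+P cells, 720 CPM in 12 D+F cells, 1743 CPM in 9 aPD-1 cells and 876 CPM in 13 control cells. All libraries were high and aPD-1 was the highest, but each value rests on under 20 cells, and the 10 UMIs of D+F+P came from a single cell. In these cells Cxcl16 ranked number 3 of 32 chemokine ligand genes by CPM, after Ccl5 at 16405 and Ccl22 at 1698 CPM, both chemokines of mature dendritic cells. Of the 9 monocyte/macrophage markers, 9 were at 0 in the migratory dendritic-like cells of aPD-1 and of control, and 8 were at 0 in those of D+F+P and D+F. Zmynd15, the overlapping gene on the other strand, was also at 490 CPM in migratory dendritic-like cells, and at 22.7 CPM in macrophage-like cells. Whether the counting used strand is not given in the sources used here, so reads of Cxcl16 and Zmynd15 in the shared exons cannot be told apart.

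Macrophage-like cells, the C1qa, C1qb and C1qc expressing phagocytes, held the largest share of the ligand among the groups named, 255 UMIs or 34.5%, in 128 cells. Their pooled Cxcl16 level was 413 CPM (364 to 467). It was 426 CPM in 18 D+F+P cells, 470 CPM in 31 D+F cells, 426 CPM in 68 aPD-1 cells and 262 CPM in 11 control cells. The treated libraries were above control, by a log2 ratio of 0.70 in D+F+P (-0.14 to 1.56), 0.84 in D+F (0.14 to 1.59) and 0.70 in aPD-1 (0.055 to 1.41), but control, and D+F+P too, had fewer than the 20 cells set for a comparison. In the control cells 1 cell held 52.2% of the UMIs. The group joined a sub-cluster led by C1qb, C1qa and Ccl8 (M5, 92 cells, 455 CPM) with a shallower one (M0, 36 cells, 218 CPM) that also led the other myeloid cells in the melanoma genes Dct, Mlana and Tyrp1. In M5 alone the level was 505, 447, 439 and 550 CPM in D+F+P, D+F, aPD-1 and control, without the lower control value, although control had only 4 M5 cells. Cxcl16 in migratory dendritic-like cells was 2.53-fold that in macrophage-like cells, a log2 ratio of 1.34 (1.01 to 1.66). The log2 ratio within each library was 1.18 in D+F+P, 0.61 in D+F, 2.03 in aPD-1 and 1.74 in control, positive in 4 of 4.

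The other myeloid groups were graded. Cxcl16 stood at 302 CPM (230 to 391) in 41 cDC2-like cells, which present antigen mainly to CD4 T cells, and at 143 CPM (111 to 182) in 54 cDC1-like cells, which cross-present to CD8 T cells. The cDC2-like level was 214, 366, 288 and 1034 CPM in D+F+P, D+F, aPD-1 and control, the last from 1 cell. The cDC1-like level was 100, 81.4, 208 and 65.1 CPM in the same order, with 12, 15, 25 and 2 cells. The cDC2-like over cDC1-like log2 ratio was 1.08 (0.55 to 1.61). Macrophage-like cells lay above cDC1-like cells by 1.53 on the log2 scale (1.14 to 1.94), and above cDC2-like cells by 0.45 (0.03 to 0.89). The last step did not leave out 0 without D+F+P (0.30, -0.16 to 0.78), without D+F (0.46, -0.017 to 0.97) or without aPD-1 (0.33, -0.26 to 0.96), and without aPD-1 the step over cDC1-like cells was 2.15 for macrophage-like and 1.82 for cDC2-like cells, since the cDC1-like level was then 90.1 CPM. In 73 monocyte-like cells, the Lyz2 and Chil3 expressing precursors of macrophages, Cxcl16 was at 55.9 CPM (31.9 to 90.7), from 1, 6, 6 and 3 UMIs in D+F+P, D+F, aPD-1 and control. The monocyte list also scored highest in M2, M6, M9 and M11, which stayed unnamed. Their Cxcl16 levels, given below, were higher and are not part of the monocyte-like level. The macrophage-like level was 7.39-fold the monocyte-like one, a log2 ratio of 2.89 (2.16 to 3.71). It was 1.24 (0.90 to 1.59) with clusters at Leiden resolution 0.5 and 1.23 (0.88 to 1.58) with gates on marker genes. Plasmacytoid dendritic-like cells, the type I interferon producers, had 0 Cxcl16 UMIs in 57 cells, where 3 UMIs would have been 16.9 CPM. The 36 neutrophil-like cells also had 0, but at a median of 990 UMIs per cell, so a low level could be missed.

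Unnamed myeloid cells held 150 Cxcl16 UMIs (20.3%), so the named groups do not account for all of the ligand. They were M1 (led by Mmp12, 293 CPM), M2 (Saa3 and Cxcl3, 263 CPM), M6 (Il1b and Cxcl2, 180 CPM), M9 (Lyz2 and Tgfbi, 166 CPM), M11 (Cxcl2 and Il1rn, 399 CPM) and M12, with 5 cells and 0 UMIs. In the order M4, M5, M11, M10, M1, M2, M0, M6, M9, M8, M7, from high to low, where M4, M10, M8 and M7 are the migratory dendritic-like, cDC2-like, cDC1-like and monocyte-like cells, only the steps from M4 to M5 (log2 ratio 1.20, 0.86 to 1.53) and from M8 to M7 (1.36, 0.55 to 2.24) had an interval that left out 0. The other neighbours did not differ beyond counting error. The step from M8 to M7 rested on aPD-1, without which it was 0.54 (-0.59 to 1.77), and M2 stood at 66.0 CPM without control, at which the steps from M1 to M2 and from M2 to M0 were 2.04 and -2.39. In control the M2 sub-cluster was the largest unnamed holder, with 22 cells at 394 CPM.

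Outside the myeloid compartment Cxcl16 was low in fibroblast-like cells and close to nothing in tumour cells. The 93 fibroblast-like cells, stromal cells expressing collagen genes, had 42.2 CPM (31.8 to 54.9) and 7.43% of the Cxcl16 UMIs. By library this was 63.3, 149, 27.6 and 22.1 CPM in D+F+P, D+F, aPD-1 and control, from 26, 7, 46 and 14 cells. In D+F+P fibroblast-like cells held 20.3% of the library's Cxcl16 UMIs, against 3.896% in D+F, 5.97% in aPD-1 and 1.89% in control. Macrophage-like cells stood 9.79-fold above fibroblast-like cells, a log2 ratio of 3.29 (2.87 to 3.74), and of 2.67 (2.11 to 3.27) without aPD-1. The monocyte-like and fibroblast-like levels did not differ beyond counting error (0.41, -0.50 to 1.23), but without D+F+P they did (1.15, 0.15 to 2.10). The 5187 melanoma-like cells together had 10 Cxcl16 UMIs, 0.104 CPM (0.0498 to 0.191), with 1, 5, 2 and 2 UMIs in D+F+P, D+F, aPD-1 and control. Fibroblast-like cells were 406-fold higher. T-like and NK-like cells had 12 Cxcl16 UMIs.

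Cells thinned to 1000 UMIs each gave the same order in shares of cells. A Cxcl16 UMI was found in 17 of 28 migratory dendritic-like cells (60.7%, 40.6 to 78.5), 40 of 105 macrophage-like cells (38.1%, 28.8 to 48.1), 11 of 40 cDC2-like cells (27.5%), 7 of 54 cDC1-like cells (13.0%), 4 of 72 monocyte-like cells (5.56%) and 4 of 90 fibroblast-like cells (4.44%). Before thinning the Cxcl16 shares were 68.4% in migratory dendritic-like and 60.2% in macrophage-like cells. The thinned share was 1 of 5172 melanoma-like cells (0.0193%) and 1 of 1705 T-like and NK-like cells (0.0587%). Cxcl16 is read as background at or below such shares, and whether these UMIs came from free RNA, doublets or the cells themselves was not tested. Median depths before thinning were 18173 UMIs in melanoma-like cells and 3784 in macrophage-like cells.

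**Figure D2:**
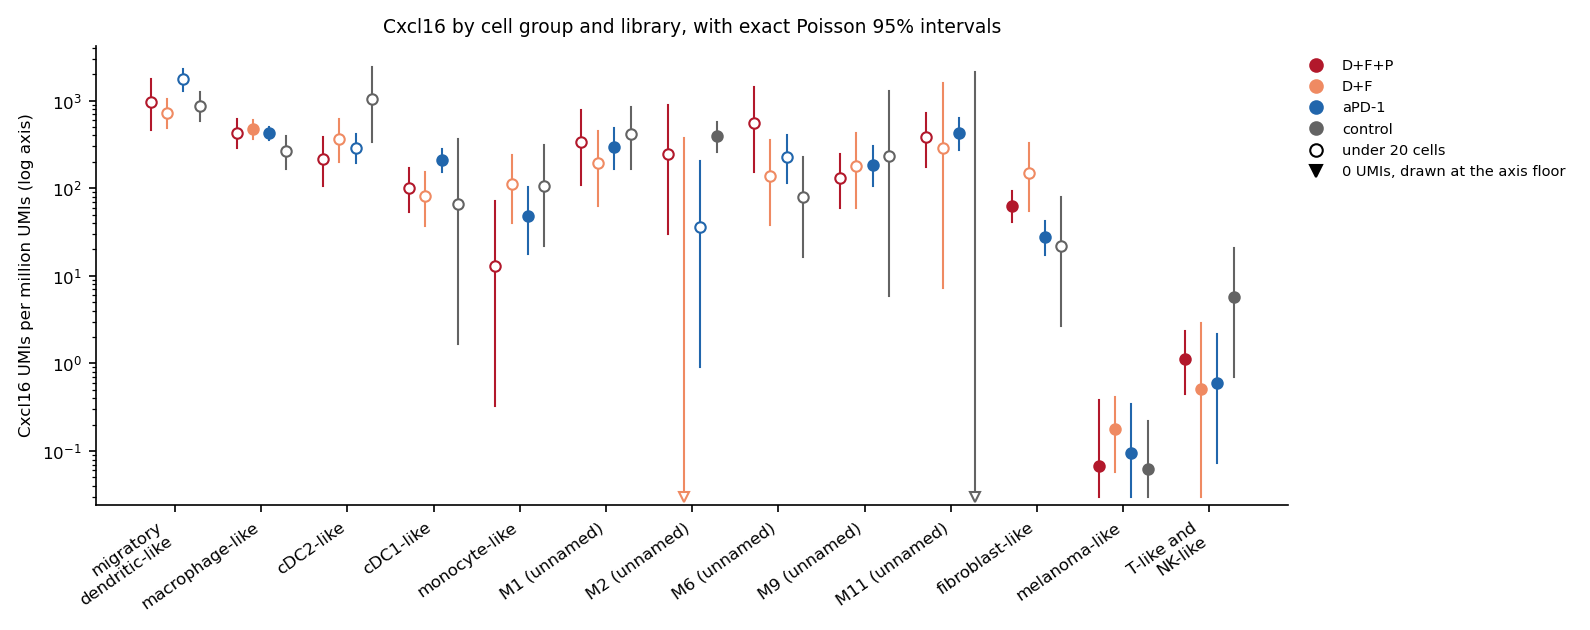
Cxcl16 level (CPM, log axis) by cell group, 1 point per library in the order D+F+P, D+F, aPD-1, control, with exact Poisson 95% intervals cut at the axis floor. Migratory dendritic-like cells sit between 720 and 1743 in the 4 libraries, and melanoma-like cells between 0.0615 and 0.177. Open points rest on under 20 cells.

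Taking all myeloid cells together at full depth, Cxcl16 was lower in D+F+P than in the other libraries, and the cells behind that value were a different mixture. The level was 181 CPM in D+F+P (93 UMIs, 107 cells), 272 CPM in D+F (142 UMIs, 131 cells), 297 CPM in aPD-1 (327 UMIs, 264 cells) and 289 CPM in control (98 UMIs, 93 cells). In these sums D+F+P stood apart and the intervals of the other libraries overlapped. Against control the log2 ratio was -0.68 in D+F+P (-1.10 to -0.25), -0.08 in D+F (-0.47 to 0.30) and 0.04 in aPD-1 (-0.29 to 0.38). At a threshold of 1.5-fold, Cxcl16 was lower in D+F+P in these sums, as were 20.2% of the 4547 genes with at least 20 UMIs in that pair. Neither D+F nor aPD-1 reached 1.5-fold, which 17.1% and 16.9% of genes did downward and 13.1% and 15.6% upward. D+F+P was also lower than D+F by a log2 ratio of -0.59 (-0.98 to -0.20), past the threshold as were 14.1% of genes, while 14.3% passed it upward. Against aPD-1 the log2 ratio was -0.72 (-1.07 to -0.38), past it as were 14.8% of genes, while 12.4% passed it upward. Thinned cells gave other values with wider intervals. Thinning leaves fewer Cxcl16 UMIs and drops shallow cells, and the part of depth itself was not tested. With cells thinned to 1000 UMIs the log2 ratio was -0.63 (-1.46 to 0.20) for D+F+P over control, 0.12 (-0.74 to 0.98) for D+F+P over D+F and -0.49 (-1.22 to 0.18) for D+F+P over aPD-1, and at 500 UMIs it was 0.38 (-0.87 to 1.70), -0.049 and -0.076, so that no interval left out 0, and the direction turned for D+F+P over D+F at 1000 UMIs and for D+F+P over control at 500. D+F over control was -0.75 (-1.57 to 0.058) at 1000 UMIs, 0.43 (-0.74 to 1.70) at 500 UMIs and -0.64 (-1.08 to -0.20) without cells over 2 times the median depth, and hence past 1.5-fold lower under 2 of these settings.

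The make-up of the myeloid cells also differed between the libraries. Macrophage-like cells gave 13.2% of the myeloid UMIs in D+F+P, against 28.1% in D+F, 28.6% in aPD-1 and 25.8% in control. Migratory dendritic-like cells gave 2.01%, 7.73%, 2.50% and 9.41%, and cDC1-like cells 25.1%, 21.2%, 18.8% and 4.52%, in the same order. Every sub-cluster was then given its pooled Cxcl16 level, with each library's make-up kept. This gave 205, 302, 273 and 285 CPM for D+F+P, D+F, aPD-1 and control, with D+F+P again below the rest. The pooled levels include each library's own cells, so part of this likeness is built in. The part of the make-up in the ratios was not tested. Without the dendritic-like cells the Cxcl16 level was 215 CPM in D+F+P, 301 in D+F, 290 in aPD-1 and 261 in control. The D+F+P over control log2 ratio was then -0.28 (-0.81 to 0.25) and no longer left out 0, and D+F+P over D+F was -0.49 (-0.99 to 0.00). D+F+P over aPD-1 remained at -0.44 (-0.88 to -0.01). At 1000 UMIs per cell, 14.0% of D+F+P myeloid cells, 16.1% of D+F, 23.6% of aPD-1 and 25.9% of control myeloid cells carried a Cxcl16 UMI, and the intervals of D+F+P (7.87 to 22.4) and control (16.8 to 36.9) overlapped. Other cells' markers differed too. The 7 melanoma markers summed to 210, 435, 389 and 1505 CPM, and the 7 T markers to 155, 109, 45.4 and 5.89 CPM, in the myeloid cells of D+F+P, D+F, aPD-1 and control. Their part in the Cxcl16 ratios was not tested.

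The genes around the ligand were counted in the same myeloid cells. ADAM10 and ADAM17 cleave CXCL16, and iRhom and tetraspanin proteins steer them. Of 9 such genes, 4 had at least 20 UMIs in D+F+P and control, 1 of them was at least 1.5-fold higher in D+F+P and 0 were lower, where 17.4% of all genes were higher and 20.2% lower. Adam17 stood at 56.3 CPM in D+F+P and 73.6 CPM in control (log2 ratio -0.39, -1.21 to 0.45), Adam10 at 25.3 and 26.5 CPM (-0.07, -1.41 to 1.34), and the higher one, Tspan14, at 38.9 and 23.6 CPM (0.72, -0.52 to 2.11), so that no interval left out 0. Of 8 interferon gamma induced chemokines and CXCL16 inducing receptors and factors, 8 were measured, 4 were higher in D+F+P, against a background of 17.4% of genes, and 1 was lower, against 20.2%. Their median log2 ratio was 0.67, against -0.03 over all genes tested. Cxcl9, a chemokine for CXCR3-bearing T cells, stood at 422 CPM in D+F+P and 109 CPM in control (1.95, 1.44 to 2.50), and Cxcl10, another ligand of CXCR3, at 1197 and 601 CPM (0.99, 0.76 to 1.23). Ifngr1, a chain of the interferon gamma receptor, stood at 142 and 70.7 CPM (1.01, 0.32 to 1.73). Tnfrsf1b, a tumour necrosis factor receptor, was the lower one at 111 and 256 CPM (-1.21, -1.72 to -0.71). Cxcl16 was lower in D+F+P while Cxcl9 and Cxcl10 were higher, and the difference between the genes was not tested.

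Cxcl16 was one of 10 chemokine ligand genes that were at least 1.5-fold lower in D+F+P than in control, out of 18 measured of 32, while 4 were higher, against 20.2% of all genes lower and 17.4% higher. The median log2 ratio of the list was -0.73, against -0.03 over all genes. The lower ones included Cxcl1 (21.4 CPM in D+F+P and 259 CPM in control, log2 ratio -3.60), a neutrophil chemokine, Ccl22 (25.3 and 256 CPM, -3.34), a ligand of CCR4, and Pf4 (40.8 and 256 CPM, -2.65), a platelet and macrophage chemokine. The higher ones were Cxcl9, Cxcl10, Ccl8 (740 CPM in D+F+P and 409 CPM in control, 0.85 on the log2 scale) and Ccl24, an eotaxin, with 58 UMIs in D+F+P and 0 in control. The 6 neutrophil markers summed to 138 CPM in D+F+P myeloid cells and 1131 CPM in control ones. M2, with Cxcl1 and Cxcl3 among its leading genes within myeloid cells, gave 1.57% of the myeloid UMIs in D+F+P and 20.2% in control. Migratory dendritic-like cells, which express Ccl22, gave 2.01% and 9.41%. The part of these cells and of the neutrophil markers in the chemokine ratios was not tested. Of 11 scavenger and phosphatidylserine receptor genes, a class to which CXCL16 itself belongs, 7 were measured, 0 were higher in D+F+P and 2 were lower, a share near the 20.2% of all genes. These were Cxcl16 itself and Stab1 (17.5 CPM in D+F+P and 58.9 CPM in control, log2 ratio -1.75), a clearance receptor. Cd68, a macrophage scavenger receptor, stood at 565 and 574 CPM (-0.022, -0.29 to 0.25), and Msr1, scavenger receptor A, at 83.6 and 100.1 CPM (-0.26, -0.94 to 0.43).

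Across cell groups the ligand's neighbours in the axis had other distributions. Cx3cl1, the other transmembrane chemokine, stood at 99.9 CPM in migratory dendritic-like cells and at 1.62 CPM in macrophage-like cells. Il15 and Il15ra, which present interleukin 15 to T and NK cells, stood at 99.9 and 236 CPM in migratory dendritic-like cells and at 32.4 and 6.48 CPM in macrophage-like cells. Cxcl9 ran the other way, with 45.4 CPM in migratory dendritic-like and 727 CPM in macrophage-like cells. Adam10 and Adam17 stood at 9.08 and 36.3 CPM in migratory dendritic-like cells, from 1 and 4 UMIs, at 30.8 and 72.9 CPM in macrophage-like cells and at 22.6 and 25.04 CPM in melanoma-like cells, so the tumour cells that held almost no Cxcl16 did carry transcripts of both proteases. These are levels over the 4 libraries summed, without a test.

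Cxcr6 was a CD8 T cell transcript in these tumours. CD8 T-like cells held 2388 of its 2833 UMIs (84.3%), with 1150 of 1421 in D+F+P, 326 of 400 in D+F, 895 of 987 in aPD-1 and 17 of 25 in control. Their pooled level was 282 CPM (271 to 294). It was 254 CPM in 479 D+F+P cells, 245 CPM in 195 D+F cells, 353 CPM in 349 aPD-1 cells and 229 CPM in 12 control cells. The aPD-1 library was the highest, and the interval of the 12 control cells, 134 to 367 CPM, spanned all others. In conventional CD4 T-like cells Cxcr6 was 93.8, 87.6, 49.95 and 149 CPM in D+F+P, D+F, aPD-1 and control (pooled 77.7, 53.8 to 109), the last from 6 cells. In regulatory T-like cells, the Foxp3 expressing suppressors, it was 43.6, 27.8, 39.1 and 31.7 CPM (pooled 37.9, 25.2 to 54.8). CD8 T-like cells stood 3.64-fold above CD4 T-like cells (log2 ratio 1.86, 1.38 to 2.40) and 7.45-fold above regulatory T-like cells (2.90, 2.36 to 3.49, or 3.65 with gates on marker genes).

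NK-like cells carried little of the receptor. Of 337 cells, 20 UMIs gave 20.6 CPM (12.6 to 31.9), 13.7-fold below CD8 T-like cells, whose log2 ratio over NK-like cells was 3.77 (3.14 to 4.49). The ratio was higher, at 4.51 to 5.23, without cells over 2 times the median depth, with both members allowed in the clustering, at 1000 UMIs per cell or with gates on marker genes, and without D+F, where the NK-like level was 11.2 CPM, it was 4.69 (3.77 to 5.82). By library NK-like cells had 7 UMIs in D+F+P (15.3 CPM), 11 in D+F (67.2 CPM), 0 in aPD-1 (where 3 UMIs would have been 15.6 CPM) and 2 in control (12.8 CPM). D+F stood out, but its 11 UMIs lay in 3 of 57 cells and 54.5% of them in 1 cell. The 7 T markers summed to 685, 855, 880 and 589 CPM in NK-like cells of D+F+P, D+F, aPD-1 and control, with all 7 detected in each, and the part of T cells in the NK-like Cxcr6 UMIs was not tested. The regulatory T-like over NK-like log2 ratio was 0.88 with an interval that reached 0. CD4 T-like over regulatory T-like cells was 1.03 (0.27 to 1.81). Both lower steps turned on D+F: without it CD4 T-like over regulatory T-like was 0.87 (-0.023 to 1.76) and regulatory T-like over NK-like was 1.85 (0.70 to 3.14).

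CD8 T-like cells were not uniform in Cxcr6. Of their 5 sub-clusters the highest was L9, led by Ccl5, Nkg7, Rgs16 and Lag3 at 411 CPM (384 to 440). Its library values were 354, 383, 487 and 356 CPM in D+F+P, D+F, aPD-1 and control, all high, from 125, 58, 158 and 4 cells. L7, led by Ly6c2, Dusp2 and Gzmk and carrying S1pr1 and Cxcr3, stood at 315 CPM (281 to 353), with 326, 222, 312 and 440 CPM in D+F+P, D+F, aPD-1 and control, the last from 2 cells. L10, a cycling cluster with Prf1 and histone genes, stood at 312 CPM (285 to 342), and L7 and L10 did not differ beyond counting error (log2 ratio 0.01, -0.20 to 0.22). L12, led by Gzmf, Gzme, Gzmd and Gzmc, stood at 231 CPM (206 to 259). L8, another cycling cluster with Gzmk and Pdcd1, was lowest at 177 CPM (161 to 194). L9 was 1.30-fold above L7 (log2 ratio 0.38, 0.19 to 0.58) and 2.32-fold above L8 (1.22, 1.05 to 1.38), and L12 lay between L10 and L8, apart from both (0.43, 0.22 to 0.64, and 0.39, 0.17 to 0.60). Without D+F+P these steps were 0.26 (-0.0076 to 0.53) and 0.27 (-0.0078 to 0.56), and without aPD-1 L9 over L7 was 0.19 (-0.028 to 0.41), each reaching 0.

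The highest Cxcr6 level of any sub-cluster was in L11, which was left unnamed and so lies outside the named CD8 T-like cells. The CD8 T list fitted L11 best, with 6 of its markers found. Its 10 top genes, however, held Ikzf2 of the regulatory T list and 0 of the CD8 T list. L11, a low-ribosomal cluster of 239 cells led by Prkch, Ptprc, Runx3 and Il21r, stood at 609 CPM (527 to 699), a log2 ratio of 0.57 (0.34 to 0.79) over L9, or 0.43 with an interval reaching 0 without D+F+P. It was at 604 CPM in D+F+P, 622 in D+F and 638 in aPD-1, in 160, 20 and 57 cells, and at 0 UMIs in the 2 control cells. Each treated library's value lay within the intervals of the other 2. L11 had a median of 1014 UMIs per cell against 5236 in L9, and CPM in cells with few ribosomal protein transcripts are shares of a smaller total, so its level and that of L9 are not on an equal footing. At 1000 UMIs per cell, where 117 L11 cells were too shallow to count, 54 of 122 L11 cells (44.3%, 35.3 to 53.5) and 121 of 334 L9 cells (36.2%, 31.1 to 41.6) carried Cxcr6, and these intervals overlapped. The other low-ribosomal clusters were lower, L4 at 204 CPM, L6 at 112 CPM and L3 at 55.0 CPM. Of these, L4 and L6 carried CD8 T markers but are kept apart here for their low share of ribosomal protein UMIs. L4 was at 171 CPM in 303 D+F+P cells, 790 CPM in 19 D+F cells and 275 CPM in 20 aPD-1 cells, so that the pooled L4 level rested on D+F+P and was 463 CPM without it, above L8 (log2 ratio 1.12, 0.22 to 1.90). L8 over L1, an unnamed cluster with Id3, Il7r and Tcf7 at 117 CPM, was 0.59 (0.044 to 1.20), and 0.37 and 0.45 with intervals across 0 without aPD-1 and without control. From L1 downward, no sub-cluster differed from the next beyond counting error over the 4 libraries.

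**Figure D3:**
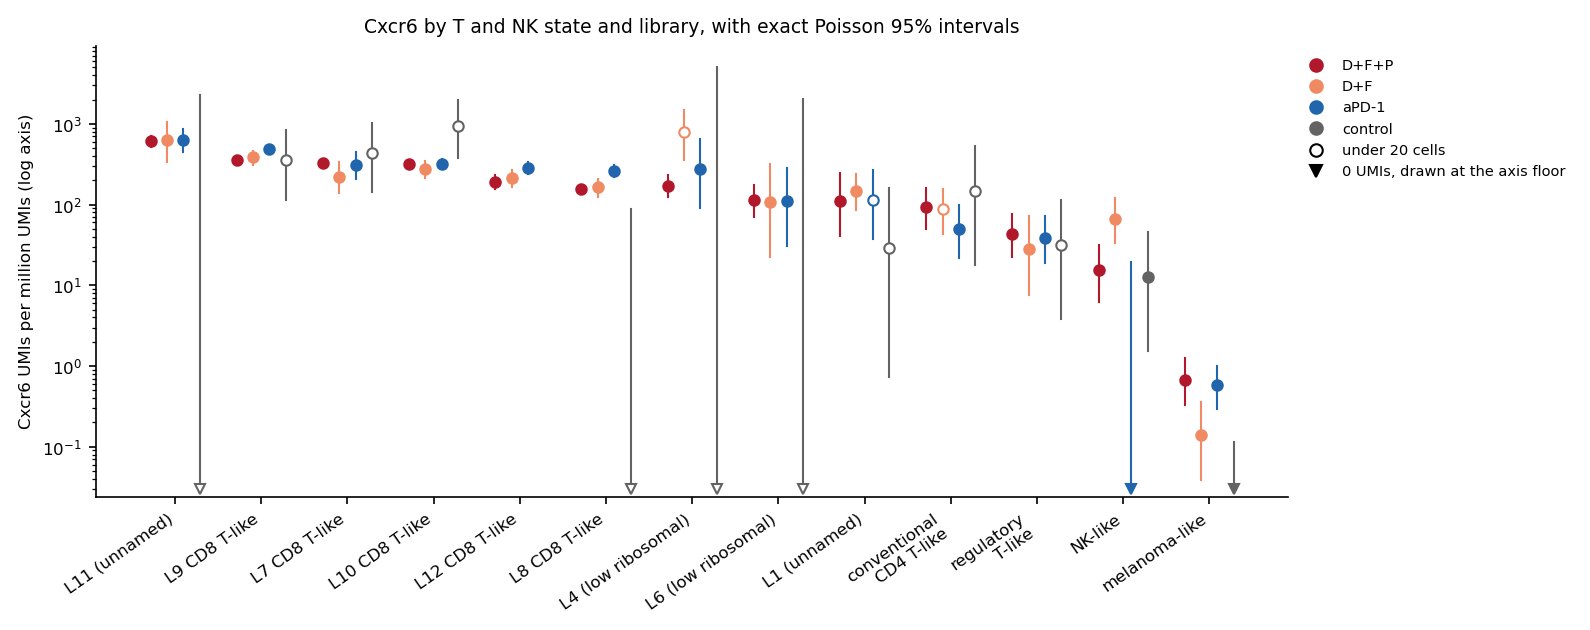
Cxcr6 level (CPM, log axis) by T and NK sub-cluster or named group, 1 point per library in the order D+F+P, D+F, aPD-1, control, with exact Poisson 95% intervals cut at the axis floor. L11 sits at 604 to 638 in the 3 treated libraries, L9 at 354 to 487 in all 4, regulatory T-like cells at 27.8 to 43.6, and melanoma-like cells at or under 0.679. Open points rest on under 20 cells.

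Cxcr6 was the leading chemokine receptor of CD8 T-like cells. It ranked first of 23 receptor genes at 282 CPM. The receptors below it included Ccrl2 (65.8 CPM), an atypical receptor for chemerin, Ccr8 (30.3 CPM), Cxcr3 (27.0 CPM), the receptor for CXCL9 and CXCL10, and Ccr7 (26.3 CPM), the lymph node homing receptor. It was first in L9, L7 and L11 alike, with Cxcr3 second in L7 at 124 CPM and Ccrl2 at 121 CPM in L11. Regulatory T-like cells were led by Ccr8 at 419 CPM and Ccr7 at 260 CPM. NK-like cells were led by Ccr2 at 104 CPM and Cxcr4 at 79.5 CPM, with Cxcr6 sixth. Fyco1, the gene around Cxcr6, was at 14.4 CPM in CD8 T-like cells and 66.6 CPM in L11.

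**Figure D4:**
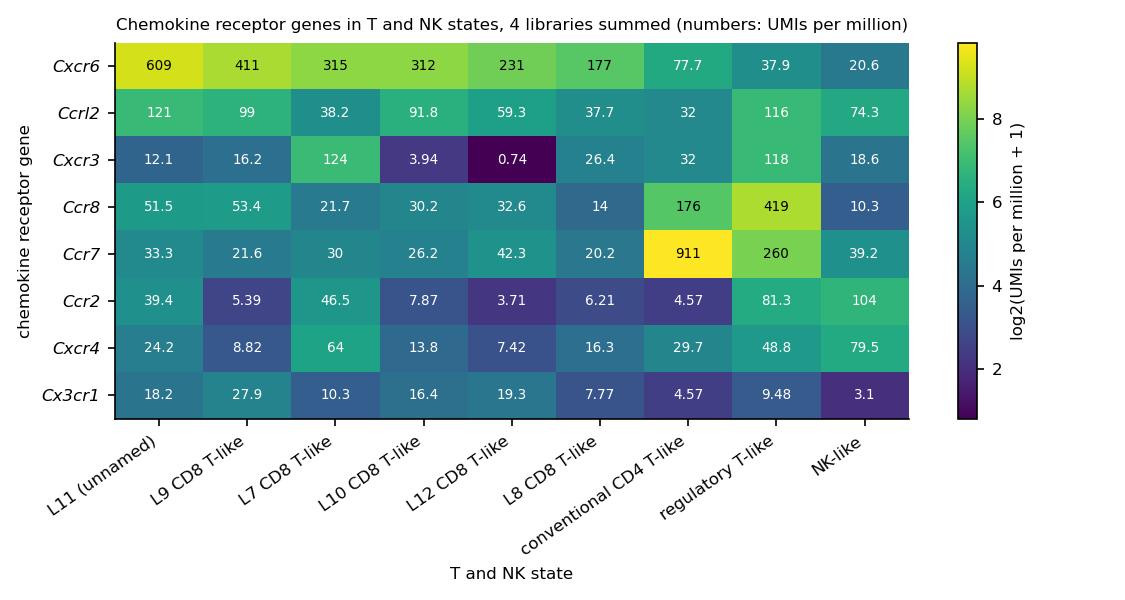
Levels of 8 chemokine receptor genes (rows) in T and NK groups and sub-clusters (columns), with the 4 libraries summed. Colour is log2(CPM + 1) and the printed numbers are CPM, with Cxcr6 highest in the 6 columns from L11 to L8, Ccr8 highest in regulatory T-like cells and Ccr7 highest in conventional CD4 T-like cells.

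Against control, T-like and NK-like cells as a whole had more Cxcr6 in each treated library. The level was 226 CPM in D+F+P (1406 UMIs), 203 CPM in D+F (394 UMIs), 292 CPM in aPD-1 (966 UMIs) and 69.2 CPM in control (24 UMIs, 101 cells). Control lay below the other 3 without overlap of the intervals. The log2 ratio to control was 1.71 in D+F+P (1.13 to 2.35), 1.55 in D+F (0.96 to 2.21) and 2.08 in aPD-1 (1.49 to 2.73). Cxcr6 was past 1.5-fold upward in each, as were 26.6%, 15.2% and 17.9% of genes in D+F+P, D+F and aPD-1, while 14.5%, 15.5% and 17.6% were past it downward. At 500 UMIs per cell the ratios were 2.38, 2.36 and 2.84, and without cells over 2 times the median depth aPD-1 over control was 1.48. The 3 ratios share the control library. Its T-like and NK-like cells were a different mixture. CD8 T-like cells made up 11.9% of them, against 28.6% in D+F+P, 41.4% in D+F and 51.6% in aPD-1. NK-like cells made up 42.6%, against 10.4%, 12.1% and 9.31%. Low-ribosomal lymphocytes made up 8.91%, against 53.2%, 21.2% and 22.5%. Every sub-cluster was then given its pooled Cxcr6 level, with each library's make-up kept. This gave 243, 213, 251 and 89.6 CPM for D+F+P, D+F, aPD-1 and control, with control again lowest. Here too the pooled levels include each library's own cells, and the part of the make-up was not tested. Within CD8 T-like cells the 12 control cells, under the 20 cells set for a comparison, stood at 229 CPM, beside 254, 245 and 353 CPM in D+F+P, D+F and aPD-1. Of the 17 UMIs of these control cells, 7 came from 1 L10 cell, and the 5 L8 cells had 0.

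In CD8 T-like cells, D+F+P and D+F did not differ in Cxcr6 beyond counting error, and both libraries lay below aPD-1. The D+F+P over D+F log2 ratio was 0.05 (-0.12 to 0.24). D+F+P over aPD-1 was -0.47 (-0.60 to -0.35), a difference larger than counting error but short of 1.5-fold, a threshold that 6.81% of 9191 genes passed downward in that pair. At 500 UMIs per cell D+F+P over aPD-1 was -0.35 (-0.85 to 0.15), and with gates on marker genes D+F+P over D+F was 0.22 (0.037 to 0.41). Over all T-like and NK-like cells these ratios were 0.15 (-0.01 to 0.32, or 0.19 and 0.011 to 0.37 with gates) and -0.37 (-0.49 to -0.25). At 1000 UMIs per cell, Cxcr6 was found in 23.1% of 445 D+F+P cells (interval 19.3 to 27.3), in 21.8% of 188 D+F cells (interval 16.1 to 28.4) and in 32.2% of 342 aPD-1 cells (interval 27.2 to 37.4). The aPD-1 share was again the highest, and its interval overlapped both others narrowly. Before thinning the Cxcr6 shares were 71.0%, 68.2% and 83.1% of CD8 T-like cells in D+F+P, D+F and aPD-1. The thinned share was 1 of 5172 melanoma-like cells, and 0.971% of NK-like cells.

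Within single T cell states this pair was compared again. Between D+F+P and aPD-1 the log2 ratio was -0.76 in L8 (-1.06 to -0.46), -0.58 in L12 (-0.96 to -0.21) and -0.46 in L9 (-0.68 to -0.25), each with an interval below 0. It was 0.06 in L7 (-0.50 to 0.68), -0.0049 in L10 (-0.30 to 0.29) and, among the low-ribosomal lymphocytes, -0.08 in L11 (-0.60 to 0.47), with intervals across 0 that overlap those of L9 and L12. The differences between states were not tested. The states were also unequally filled, with 156 L7 cells in D+F+P, 28 in D+F and 20 in aPD-1, and 125, 58 and 158 L9 cells.

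**Figure D5:**
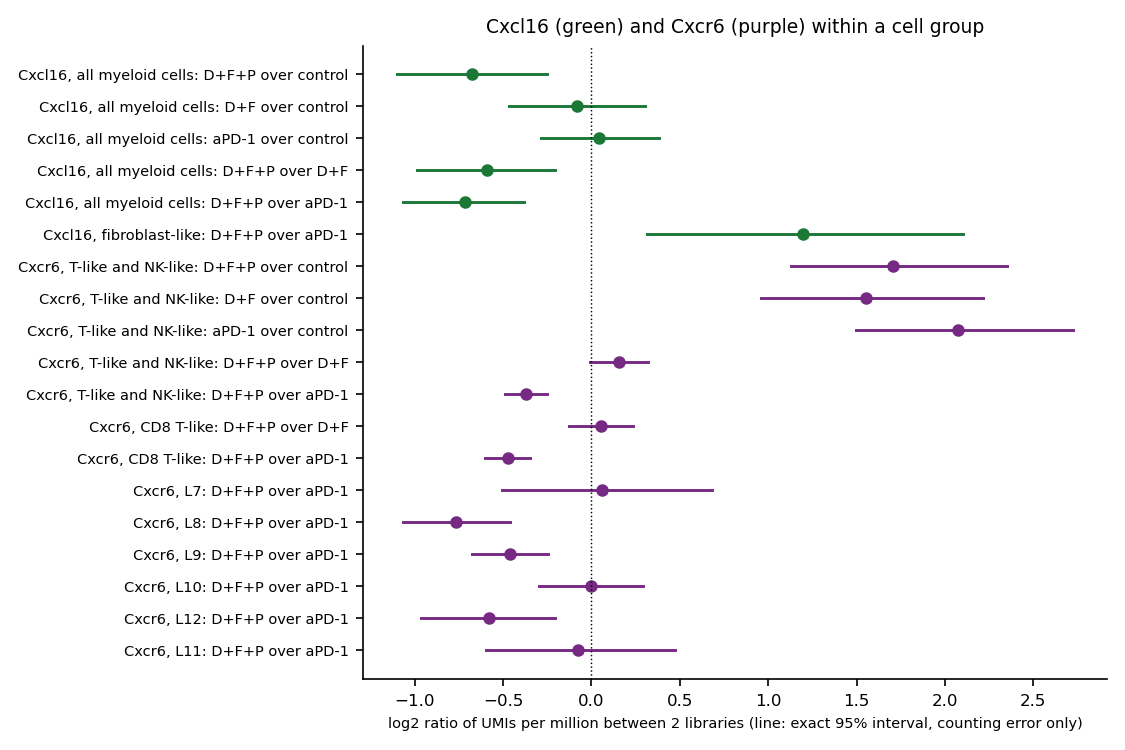
Log2 ratio of CPM between 2 libraries within a cell group, for Cxcl16 (green) and Cxcr6 (purple), with exact 95% intervals for counting error only. Cxcl16 in all myeloid cells lies at -0.68 for D+F+P over control, and Cxcr6 in T-like and NK-like cells lies at 1.55 to 2.08 for the 3 treated libraries over control.

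Other genes of CD8 T-like cells set the Cxcr6 difference in context. The make-up of these cells differed between the libraries. L7, which carried S1pr1 and Cxcr3, gave 17.0%, 7.44% and 3.55% of their UMIs in D+F+P, D+F and aPD-1. L12 gave 11.9%, 24.0% and 19.4% in the same order. The part of this make-up in the gene differences was not tested. Of 8 checkpoint and exhaustion genes measured, 0 were at least 1.5-fold higher in D+F+P than in aPD-1 and 1 was lower, near the shares of all genes, 10.5% higher and 6.81% lower. The lower one was Tox, a factor of exhausted T cells (115 CPM in D+F+P and 201 CPM in aPD-1, log2 ratio -0.81). Their median log2 ratio was -0.35, against 0.02 over all genes, and Pdcd1, the gene of PD-1, stood at 489 and 641 CPM (-0.39, -0.48 to -0.30), beside -0.47 for Cxcr6. Of 8 egress and recirculation genes, 6 were measured, 4 were higher in D+F+P and 0 lower, against a background of 10.5% of genes upward. They were Klf2 (31.9 and 6.71 CPM, log2 ratio 2.25), a factor that keeps T cells circulating, Tcf7 (9.07 and 2.37 CPM, 1.94) and Lef1 (27.2 and 9.08 CPM, 1.58), factors of memory T cells, and S1pr1 (21.2 and 9.87 CPM, 1.11), the exit receptor. Of 12 residency genes, 10 were measured, 1 was higher and 0 lower, with a median of -0.06. The higher one, Itga1, a collagen-binding integrin, stood at 6.42 and 2.77 CPM (1.22, -0.01 to 2.65), and Runx3 stood at 174 and 169 CPM (0.04, -0.13 to 0.21).

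Chemokine receptors and effector genes of CD8 T-like cells differed in both directions between D+F+P and aPD-1. The part of the unequal L7 and L12 shares given above was not tested here either. Of 23 receptors 10 were measured, 3 were higher in D+F+P and 4 lower, against 10.5% and 6.81% of all genes. Cxcr3 was higher (37.4 CPM in D+F+P and 12.6 CPM in aPD-1, log2 ratio 1.57, 1.01 to 2.16), as were Ccr2, a receptor of inflammatory chemokines (14.6 and 5.92 CPM, 1.30), and Cxcr4, the CXCL12 receptor (22.3 and 13.8 CPM, 0.69). Ccrl2 (51.3 and 90.8 CPM, -0.82), Ccr8 (22.6 and 38.7 CPM, -0.78), Cx3cr1, the fractalkine receptor (14.2 and 22.1 CPM, -0.64), and Ccr1, at 9 and 11 UMIs, were lower. Of 13 cytotoxic genes, against the same shares, 1 was higher, Gzma (172 and 71.9 CPM, 1.26), and 6 were lower, among them Gzmf (177 and 1149 CPM, -2.70) and Gzmc (199 and 805 CPM, -2.02), granzymes that mark L12. The perforin gene Prf1 (441 and 678 CPM, -0.62) was also lower. Between D+F+P and D+F, where the Cxcr6 ratio was 0.05, 3 receptors of 9 measured were higher and 2 lower, against backgrounds of 13.7% and 7.93%. There Cxcr3 stood at 37.4 CPM in D+F+P and 15.03 CPM in D+F (1.31) and Ccr7 at 18.8 and 73.7 CPM (-1.97), while 0 of 8 checkpoint genes differed by 1.5-fold.

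For T-like and NK-like cells against control, 6 of 8 checkpoint genes were at least 1.5-fold higher and 0 lower in each of D+F+P, D+F and aPD-1, against 26.6%, 15.2% and 17.9% of all genes higher. These counts share the control library, where 42.6% of such cells were NK-like and 11.9% CD8 T-like. The part of that make-up was not tested. Pdcd1 stood at 412, 489 and 560.5 CPM in D+F+P, D+F and aPD-1, and at 118 CPM in control. In D+F+P and D+F, Cxcr6 was the 1 chemokine receptor of 9 measured that was higher than in control, beside 5 lower in D+F+P and 6 lower in D+F. In aPD-1 Cx3cr1 was also higher, from 65 UMIs in aPD-1 and 3 in control with an interval across 0, and 5 were lower. Of all genes, 14.5%, 15.5% and 17.6% were lower in D+F+P, D+F and aPD-1. One of the lower receptors, Ccr7, stood at 53.9, 130 and 85.1 CPM in D+F+P, D+F and aPD-1, and at 280 CPM in control.

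The genes most like each member in level were looked up over the units of cluster and library with at least 20 cells, as Pearson correlations of log2(CPM + 10), given as a description of units that share libraries and depth. Over 82 units and 11080 genes the 5 nearest to Cxcl16 were Rab7b (r = 0.946), Pid1 (0.931), Sdc3 (0.926), Ctsh (0.918) and Fcgr1 (0.915). Most units were of T-like, NK-like or melanoma-like cells. Migratory dendritic-like and cDC2-like cells had under 20 cells in every library, so they had no part in these values. Fcgr1 had 0 UMIs in the 38 migratory dendritic-like cells. The 5 nearest to Cxcr6 were Cd8b1 (0.969), Cd8a (0.965), Pdcd1 (0.955), Cd3e (0.939) and Ubash3a (0.928). Within the 36 T and NK units alone they were Cd8a (0.930), Cd8b1 (0.919), Pdcd1 (0.855), Pelo (0.775) and Themis (0.771).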

How the data were processed

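Tumours were digested, red cells, debris and dead cells were removed, and suspensions aimed at 10000 cells went to 10x Chromium 5′ V(D)J libraries, per the labels' protocols. The submitters' processing notes name Cell Ranger 3.1.0 and the build GRCm38 (mm10). The annotation release and the use of strand are not given in the sources used here. What the authors deposited are matrices of UMI counts, integers per the file headers, that were not normalized.

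A barcode was kept as a cell from 300 genes and 500 UMIs upward, if mitochondrial UMIs were no more than 20% of its total. Scrublet called 37 of 9461 (0.391%), which were removed. Because that share is under 0.5%, the call is treated as failed, and doublets are likely still present. Scanpy 1.11.5 with 2000 variable genes (without Cxcl16, Cxcr6 and antigen receptor segments), 30 components, 15 neighbours and Leiden resolution 1 gave clusters, without integration, and T and NK cells and myeloid cells were clustered again at 1.5. A name needed 3 or more markers of its list, each found in 10% or more of the cells. A cluster stayed unnamed where no list fitted, where another class's markers led its 10 top genes, or where its median UMIs were under a set share of its libraries' medians with no own marker among those genes.

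UMIs were summed per library and cell group and divided by all gene UMIs (CPM). CPM carry exact Poisson intervals, shares Clopper-Pearson intervals and ratios conditional binomial intervals, all at 95% and from SciPy 1.17.1. Groups were compared with at least 20 cells in both libraries, genes of lists with at least 20 UMIs in the pair, and 1.5-fold was the call. Cells were thinned to 1000 UMIs for shares, leaving out shallower cells. A chemokine receptor gene of the list is not reported here. The calculations were tested on simulated data. Alternatives were a stricter cell filter, other clustering resolutions, marker gates, thinning, other scalings and leaving out cells, clusters or libraries. Genes named are Cxcl16 and Cxcr6, members of the lists at each end or under discussion, leading genes of clusters, and the 5 nearest genes by correlation among those with at least 200 UMIs. The members, lists and comparisons were chosen with earlier results of these data known. Promoter sequence came from RefSeq, and gene positions from GENCODE vM21.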

Additional observations from a re-analysis of the deposited data

Results flagged for a closer look

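Within the pair D+F+P and aPD-1, Cxcl16 differed in opposite directions in 2 cell groups. In myeloid cells without the dendritic-like ones the log2 ratio was -0.44 (215 CPM in D+F+P and 290 CPM in aPD-1), and in fibroblast-like cells it was 1.199 (63.3 CPM, 26 UMIs, in D+F+P and 27.6 CPM, 21 UMIs, in aPD-1). The difference between the 2 groups was not tested. In the fibroblast-like cells the 9 monocyte/macrophage markers summed to 4.87 CPM in D+F+P and 142 CPM in aPD-1, and in D+F+P 7 of the 9, Lyz2, Adgre1, Fcgr1, C1qa, C1qb, C1qc and Ms4a6c, were at 0. The 6 pericyte markers summed to 426 CPM in D+F+P and 756 CPM in aPD-1, and their part was not tested.

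Within the pair D+F+P and D+F, Cxcr6 differed in opposite directions in NK-like cells (log2 ratio -2.13, from 7 UMIs in D+F+P and 11 in D+F) and in melanoma-like cells (2.26, from 10 UMIs in D+F+P and 4 in D+F). This difference was not tested either. In melanoma-like cells the 7 T markers summed to 14.1 CPM in D+F+P and 4.61 CPM in D+F, and their part was not tested.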

How the results depend on the processing

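No paired analysis was possible because each group has 1 library and the labels give no replicate numbers. Of 227 alternative values of 16 ratios and levels, 202 moved by less than their counting error, 23 moved by more and 2 reversed. A reversal was counted only where the main interval left out 0. Other ratios also changed sign. Across settings, Cxcl16 in all myeloid cells ran from -0.75 to 0.43 for D+F over control. It ran from -0.18 to 0.46 for aPD-1 over control. Cxcr6 in T-like and NK-like cells ran from -0.054 to 0.29 for D+F+P over D+F. Cxcl16 in all myeloid cells reversed to 0.12 for D+F+P over D+F at 1000 UMIs per cell and to 0.38 for D+F+P over control at 500, both with intervals across 0. At 1000 UMIs D+F over control was -0.75 and Cxcr6 in CD8 T-like over NK-like cells 5.15. At 500 UMIs Cxcl16 was 0.43 and 0.46 for D+F and aPD-1 over control and -0.049 and -0.076 for D+F+P over D+F and aPD-1, and Cxcr6 in T-like and NK-like cells 2.38, 2.36 and 2.84 for D+F+P, D+F and aPD-1 over control. Without cells over 2 times their group's median depth, Cxcl16 was -1.25 and -0.64 for D+F+P and D+F over control and -1.07 for D+F+P over aPD-1, and Cxcr6 -0.28 (CD8 T-like) and -0.24 (T-like and NK-like) for D+F+P over aPD-1, 1.48 for aPD-1 over control and 4.51 for CD8 T-like over NK-like cells. Macrophage-like over monocyte-like Cxcl16 was 1.24 at Leiden resolution 0.5 and 1.23 with gates on marker genes, where Cxcr6 in CD8 T-like cells was 5.23 over NK-like and 3.65 over regulatory T-like cells. With both members allowed in the clustering, CD8 T-like over NK-like was 4.55, and without the D+F library 4.69. The mean of per-cell CPM gave -0.054 for Cxcr6, D+F+P over D+F, in T-like and NK-like cells. CD8 T-like cells held 94.1% of Cxcr6 UMIs without low-ribosomal clusters. At 50 UMIs 1 scavenger gene was lower in myeloid cells (2 at 20 UMIs). The cause of these moves was not tested. Median-of-ratios scaling shifted aPD-1 over control in T-like and NK-like cells by 0.12, and other pairs by under 0.1. Leaving out a library, the dendritic-like cells or the top Cxcl16 cell of each library was chosen after seeing the data. Groups of under 20 cells, and 25 Cxcr6 UMIs in control, limit the precision, and 1 library per group leaves the spread between tumours unknown.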
